A study of Mus musculus with 6 samples.

Results

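The nuclear genes of respiratory complexes II to V and of cytochrome c were followed in RAW264.7 macrophages of an osteoclast induction protocol with RANKL, in libraries labelled RANKL or albiflorin. Members were the rows of the raw count table annotated as protein-coding whose gene name is Sdha to Sdhd, Cyc1 or Cycs, or begins with Uqcr, Cox4 to Cox8 or Atp5. The rule took 48 of the 41921 rows: 4 of complex II, 9 of complex III, the cytochrome c gene Cycs, 17 of complex IV and 17 of complex V. Names rather than function set the membership, so 3 of the 48 encode no subunit: Cox7a2l, a supercomplex factor, and Atp5s and Atp5sl, which carry the Atp5 name. The test had 45 of the members, since Cox6b2, Cox8b and Cox8c had too few reads.

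These complexes sit in the inner membrane of the mitochondrion. Complex II (succinate dehydrogenase) oxidises succinate and passes electrons to coenzyme Q, complex III (the cytochrome bc1 complex) passes them to cytochrome c, and complex IV (cytochrome c oxidase) hands them to oxygen. Complexes III and IV pump protons, and complex V (ATP synthase) lets the protons back through its membrane part, Fo, to drive ATP synthesis in its F1 head. The catalytic core of complex IV and parts of complexes III and V are encoded by mitochondrial DNA, which had 0 rows in the count table, so those subunits were not analysed here. Osteoclasts, the bone-resorbing cells that RANKL induces from macrophages, are known for many mitochondria.

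RAW264.7 is a mouse monocyte/macrophage cell line of BALB/c origin, labelled wild type, and RNA from 6 libraries was sequenced, 3 labelled RANKL and 3 labelled albiflorin, a monoterpene glycoside of peony. The protocol given for every sample is osteoclast induction with RANKL at 50 ng/mL, begun 3 days after confluence. The dose and time of albiflorin, and whether those cells also received RANKL, could not be read from the labels, and no untreated cells were analysed here. Nothing says that the 3 libraries of a group came from separate cultures, so p-values reflect only library-to-library spread, part of which can be technical. Libraries held 13673284 to 15489482 counted reads.

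The labelled cell type was checked on marker genes. Of 9 macrophage markers, 8 were matched, and 7 of these had reads throughout while Itgam had 1 read in 1 library and 0 in the others. The 8 had a summed level of 3994 to 4292 CPM (reads scaled to library size) in the RANKL libraries and 4134 to 4308 CPM in the albiflorin libraries. Among them Spi1 (0.31, adjusted p = 0.00232) and Cd14 (0.26, adjusted p = 0.0119) were higher with albiflorin and Adgre1 was lower (-0.30, adjusted p = 0.00933), as log2 fold changes in edgeR. The 9 osteoclast markers summed to 190 to 206 CPM and 184 to 195 CPM, with the calcitonin receptor gene Calcr at 0. Most of that sum was Nfatc1, at 136 to 151 CPM with RANKL and 116 to 127 CPM with albiflorin. As counted, Nfatc1 was lower (-0.22, adjusted p = 0.0180) and Acp5 was higher (0.29, adjusted p = 0.0371). With a trend of counts on mRNA length removed from each library, as described below, none of the 6 tested osteoclast markers was called. Nfatc1 was then at -0.12 (adjusted p = 0.153) and Acp5 at 0.08 (adjusted p = 0.624). Of the macrophage markers Spi1 (0.21, adjusted p = 0.0167) and Adgre1 (-0.28, adjusted p = 0.0144) were still called, and Cd14 was not (0.09). Mean levels of Ctsk, Oscar and Ocstamp were 0.457, 0.113 and 0.568 CPM with RANKL and 0.693, 0.120 and 0.691 CPM with albiflorin. The part of these marker differences in the results on the respiratory genes was not tested. Markers of muscle, where several complex IV isoforms are known to act, stayed below 0.60 CPM in every library, with Myh7 and Tnnt2 at 0. All 4 lymphocyte markers together reached 0.0743 CPM at most, the 5 epithelial and endothelial markers 0.877 CPM, and the 5 matched fibroblast and osteoblast markers 4.40 CPM.

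Promoters are shown because nuclear genes of respiration are known for binding sites of nuclear respiratory factors and ETS factors. RefSeq promoters (build GRCm38.p6, windows of 300 bases, 250 before the start and 50 after it) were found for 37 of the members, and both strands were searched for exact letters. A gene counted as having a motif if any of its promoters held it. The NRF1 motif, spelled by the capitals of the first 2 sequences, was present in 4 of 37 (10.8%), against 1.07% of 27025 genes with a promoter. Those genes were not filtered by expression or coding type, whereas the members are all protein-coding. The ETS motif CCGGAAG was present in 12 of 37 (32.4%), against 9.93%. The YY1 motif AAGATGGC stood in 4 (10.8%), against 3.19%, and the cAMP response element TGACGTCA in 2 (5.41%), against 2.03%. A match describes letters only and says nothing of binding. The 100 bases before the start of 7 promoters are printed 5′ to 3′ on the gene's strand. Capitals mark the NRF1 motif in the first 2, the ETS motif (as CTTCCGG, its other strand) in the next 4 and the cAMP response element in the last, and no printed match overlaps another.
Atp5g2, chr15:102671048-102671147, minus strand: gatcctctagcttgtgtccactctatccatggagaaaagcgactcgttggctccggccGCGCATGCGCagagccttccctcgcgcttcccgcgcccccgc
Atp5k, chr5:108434400-108434499, minus strand: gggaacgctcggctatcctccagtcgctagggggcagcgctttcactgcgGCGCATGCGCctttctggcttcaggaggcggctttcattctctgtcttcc
Sdhd, chr9:50603850-50603949, minus strand: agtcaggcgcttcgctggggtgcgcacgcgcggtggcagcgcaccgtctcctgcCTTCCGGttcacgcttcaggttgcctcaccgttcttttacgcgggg
Uqcrh, chr4:116075071-116075170, minus strand: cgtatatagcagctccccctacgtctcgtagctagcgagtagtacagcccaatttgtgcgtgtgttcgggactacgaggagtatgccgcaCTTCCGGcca
Cox6b1, chr7:30626115-30626214, minus strand: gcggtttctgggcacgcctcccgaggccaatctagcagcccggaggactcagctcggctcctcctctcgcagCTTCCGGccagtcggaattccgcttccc
Atp5h, chr11:115419920-115420019, minus strand: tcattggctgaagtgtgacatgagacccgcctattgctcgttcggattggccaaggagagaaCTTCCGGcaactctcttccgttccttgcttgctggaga
Uqcrfs1, chr13:30545317-30545416, minus strand: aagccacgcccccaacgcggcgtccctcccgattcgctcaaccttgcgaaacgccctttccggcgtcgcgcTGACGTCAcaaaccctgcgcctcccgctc

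The genes differed widely in level per length. Over all 6 libraries the mean FPKM (reads scaled to gene length and depth) of the 45 tested genes ran from 2.79 for Cox4i2 to 314 for Atp5a1, with a median of 78.7, against 8.44 over the 13158 tested genes. Complexes II and III were even, with a 3.46-fold and a 3.13-fold range between the lowest and highest gene (Sdhb 48.4 and Sdhd 167 FPKM, Uqcrb 43.2 and Uqcrh 135 FPKM). Complex IV spanned 80.8-fold, from Cox4i2 to Cox6b1 (225 FPKM), and the 15 subunits of complex V 15.5-fold, from Atp5g1 (20.2 FPKM) to Atp5a1. Atp5s, which is no subunit, was lower still (8.46 FPKM). The F1 alpha and beta genes Atp5a1 and Atp5b (243 FPKM) and the Fo subunit g gene Atp5l (285 FPKM) led complex V. Cox7c, a small subunit of complex IV, was listed at 9.91 FPKM, far below the other subunits used in all tissues. FPKM depends on the gene length listed by the authors, so a longer listed length gives a lower FPKM for the same reads. How that length was defined is not given, and for Cycs it was 2456 nt, below its principal mRNA of 3123 nt. Cox7c, listed at 1131 nt, was also low in CPM, at a mean of 8.66 with RANKL and 13.9 with albiflorin.

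**Figure D1:**
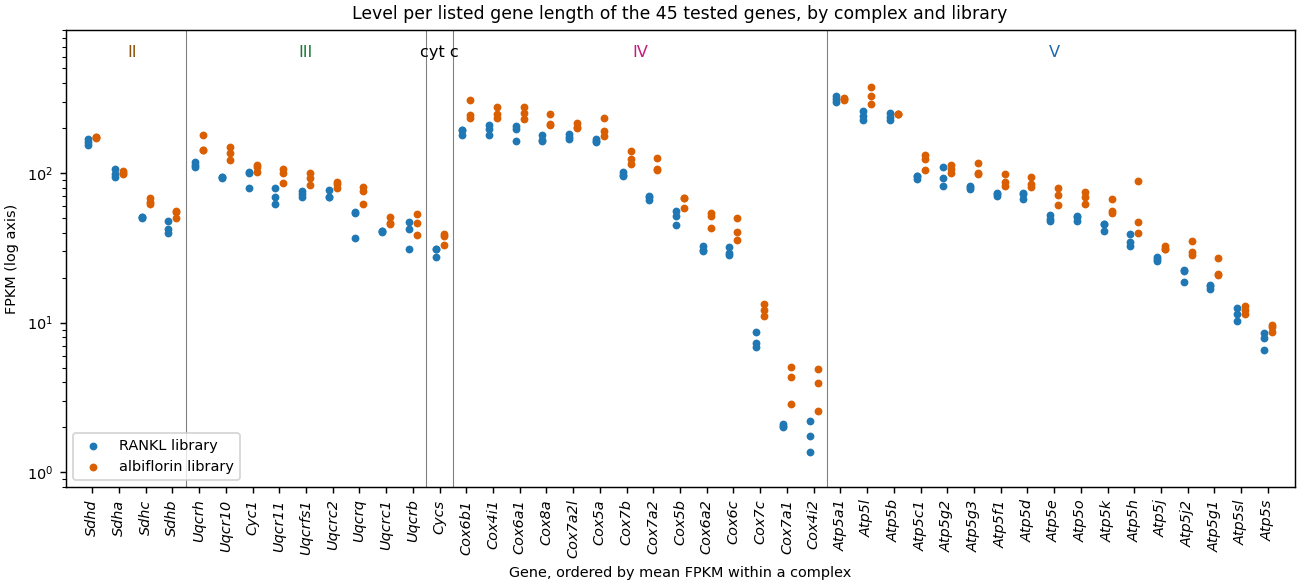
FPKM (log axis) of the 45 tested genes in each library, ordered by mean level within complex II, III, cytochrome c, IV and V; blue points are RANKL libraries and orange points albiflorin libraries. Atp5a1, at a mean of 314 FPKM, lies highest, and the tissue isoform genes Cox7a1 and Cox4i2 lie lowest.

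As counted, 35 of the 45 tested genes were higher with albiflorin and 0 were lower (edgeR, adjusted p under 0.05). Over all 13158 tested genes 12.4% were called higher and 11.4% lower. The median log2 fold change of the 45, albiflorin over RANKL, was 0.38, against 0.0056 over all tested genes. No fold change was below 0, the lowest being Atp5a1 at 0.00050; with RLE in place of TMM scaling of the libraries, or with DESeq2, it was -0.0054. At an unadjusted p under 0.05, for which no share over all tested genes is given here, the counts were 38 higher and 0 lower. With limma-voom 35 members were called higher and with DESeq2 33, each with 0 lower. The 3 RANKL libraries lay wholly below the 3 albiflorin libraries for 39 of 45 genes, against 20.8% of all tested genes, and wholly above them for 0, against 19.3%. A test against a 1.2-fold change called 6 of the 45 higher, against 1.47% of all tested genes.

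These calls moved with transcript length. In these libraries short mRNAs were counted more, relative to long ones, with albiflorin than with RANKL. The slope of log2 CPM per doubling of mRNA length, over 9025 genes, was 0.0712, 0.125 and 0.0622 in RANKL replicates 1 to 3 and -0.0842, -0.143 and -0.0311 in albiflorin replicates 1 to 3. The genes of these complexes are short, with a median mRNA of 838 nt for tested members against 2977.5 nt for tested protein-coding genes (principal transcripts of GENCODE M21). When the length trend was removed from each library, 6 of the 45 stayed higher and 0 were lower, against 4.83% higher and 5.57% lower over all tested genes. The median of the 45 was then 0.03, against -0.02 over all tested genes, with 27 above and 18 below 0. At an unadjusted p under 0.05, again with no share over all tested genes given, 9 were then higher and 4 lower (Atp5g2, Atp5k, Cox5a and Sdhd). Without such a share the unadjusted counts, as counted or with the trend removed, cannot be weighed against a background. The 6 genes that stayed higher at an adjusted p under 0.05 were Sdhc, Uqcrq, Cycs, Cox7a2, Atp5j2 and Atp5g1. In the coordinates of the deposited table, which names no build and uses C57BL/6NJ identifiers, they lie on the minus strand at chr1:182787069-182810856 (Sdhc), chr11:54403840-54406749 (Uqcrq), chr6:50797921-50801229 (Cycs), chr9:82480412-82485023 (Cox7a2), chr5:156105041-156114240 (Atp5j2) and chr11:101423868-101430730 (Atp5g1).

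The length used mattered. Removing a trend on the listed gene length left 15 members higher and 0 lower, against 7.18% and 7.96% of all tested genes. A trend on the shortest principal mRNA of each gene left 5 higher and 1 lower, against 4.94% and 6.44%, and one on coding length left 10 higher and 0 lower, against 5.86% and 8.39%. Cox7a2 and Atp5j2 were the members called higher under all 4 lengths. The slopes of the groups do not overlap, so treatment and length trend cannot be told apart here.

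**Figure D2:**
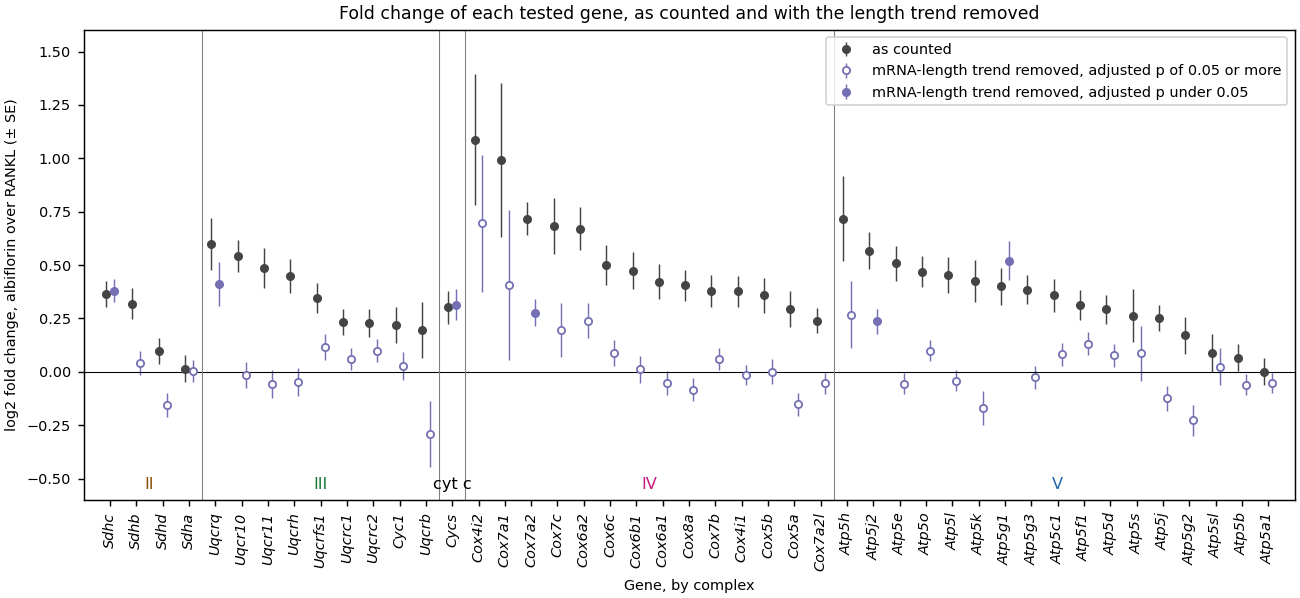
Log2 fold change (albiflorin over RANKL) ± SE of each tested gene by complex; dark points are as counted, purple points have the mRNA-length trend removed, filled where the adjusted p was under 0.05. As counted all lie at or above 0 with a median of 0.38, and with the trend removed most lie near 0 with a median of 0.03.

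Classes of mRNA length were also compared without a correction. Of 25 tested members with an mRNA under 1000 nt, 22 were higher (88%, median 0.47), and of the 592 other protein-coding genes of that length 344 were higher (58.1%, median 0.38). Between 1000 and 2000 nt, 10 of 14 members were higher (median 0.28), against 29.7% of 2263 other genes (median 0.18). After removal of the trend, 2 of the 25 short members and 3.04% of the other short genes were higher, with medians of -0.02 and -0.01. Across the 45 genes Spearman's rho between fold change and mRNA length was -0.60, and across 10698 protein-coding genes it was -0.62. With the mRNA-length trend removed the values were 0.34 and 0.04, so among the members the sign was reversed. Genes share libraries and are not replicates. Whether the share of short members called differs from that of other short genes was not tested.

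**Figure D3:**
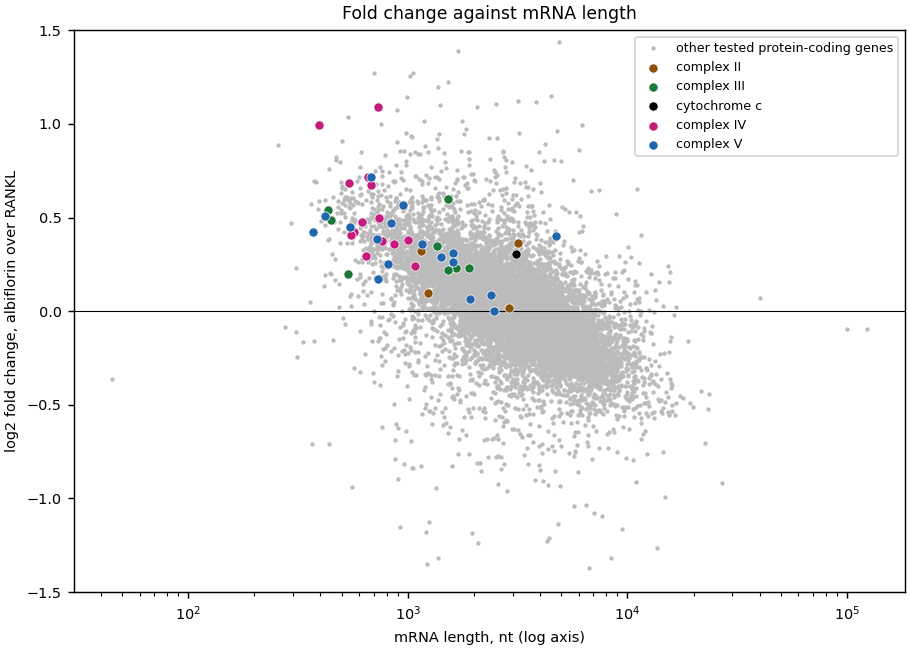
Log2 fold change against mRNA length (log axis) for tested protein-coding genes (grey) and for the genes of each complex (coloured); 10 genes lie outside the range of ±1.5 shown. Most coloured points lie among the short genes at the upper left. Of the members with longer mRNAs, Atp5a1 (2471 nt) and Sdha (2900 nt) lie near 0. Cycs (3123 nt), Sdhc (3171 nt) and Atp5g1 (4715 nt) lie above it, at 0.30, 0.37 and 0.40.

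Complex II had 2 of 4 genes higher as counted, against 12.4% of all tested genes, with a median of 0.21. With the mRNA-length trend removed 1 was called higher, against 4.83% of all tested genes, and the median was 0.02. Sdha, the flavoprotein that oxidises succinate, stood at 415, 366 and 385 CPM in the RANKL libraries and 401, 390 and 386 CPM in the albiflorin libraries. The groups overlapped, and the log2 fold change was 0.01 ± 0.0628 (SE, n = 3 libraries a group), edgeR adjusted p = 0.896. Sdhc, a membrane anchor of the complex, stood at 163 CPM in every RANKL library and at 208, 222 and 200 CPM in the albiflorin libraries. All 3 albiflorin libraries were above all 3 RANKL libraries, with a log2 fold change of 0.37 ± 0.0599 and an adjusted p of 0.000728. Sdhc with the trend removed was at 0.38 ± 0.053, adjusted p = 0.000787. Its mRNA is 3171 nt long and the coding part of it 507 nt, and with the trend on coding length removed Sdhc was at 0.15, adjusted p = 0.0643. The other anchor gene, Sdhd, was at 219, 209 and 200 CPM against 222, 226 and 224 CPM. Its groups did not overlap, but the fold change of 0.10 did not pass (adjusted p = 0.252). Sdhb, the iron-sulphur subunit, was called as counted (0.32 ± 0.0737, adjusted p = 0.00579) and was at 0.04 with the trend removed (adjusted p = 0.683). Sdhc was the 1 gene of complex II called in both.

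Complex III had 7 of 9 genes higher as counted, against 12.4% of all tested genes, with a median of 0.35. With the mRNA-length trend removed 1 was called higher, against 4.83% of all tested genes, and the median was 0.03. The 4 catalytic and core genes (Cyc1, Uqcrfs1, Uqcrc1, Uqcrc2) had a median of 0.23 with 3 called. The 5 supernumerary genes, small subunits around the core, had a median of 0.49 with 4 called. With the mRNA-length trend removed this order was reversed. The core and catalytic genes then had a median of 0.08 with 0 called, and the supernumerary genes -0.05 with 1 called. Uqcrq, a supernumerary subunit, stood at 100.5, 67.4 and 99.0 CPM in the RANKL libraries and at 149, 140 and 114 CPM in the albiflorin libraries. RANKL replicate 2 was far below its group, the groups did not overlap, and the log2 fold change was 0.60 ± 0.122 (adjusted p = 0.00278). With the trend removed it was 0.41 ± 0.103 (adjusted p = 0.0188), using an mRNA of 1521 nt; with the shortest principal mRNA, 405 nt, it was 0.11 (adjusted p = 0.483). On the 1521 nt mRNA the call was lost without albiflorin replicate 1 (0.33, adjusted p = 0.0954). Uqcrh, the hinge protein that helps cytochrome c dock, stood at 141, 148 and 137 CPM against 179, 225 and 179 CPM. The groups did not overlap and the fold change was 0.45 ± 0.0810 (adjusted p = 0.00137), but -0.05 with the trend removed (adjusted p = 0.704). Uqcr10, another small subunit, stood at 55.3, 55.2 and 54.7 CPM against 80.1, 88.4 and 72.0 CPM, without overlap (0.54 ± 0.0754, adjusted p = 0.000363; -0.01 with the trend removed). Cyc1, the cytochrome c1 subunit, stood at 121, 94.7 and 120 CPM against 136, 133 and 121 CPM, without overlap by a narrow gap, and did not pass (0.22, adjusted p = 0.0714). Uqcrb ran at 27.6, 37.6 and 41.7 CPM against 34.3, 41.3 and 47.3 CPM, with overlapping groups (0.20, adjusted p = 0.301). Other rows of the table with the same protein match held 19.5% of the joint reads of Uqcrb and its copies and 10.2% of those of Uqcr11, so these values are uncertain.

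Cycs, the mobile electron carrier between complexes III and IV, stood at 77.1, 67.4 and 77.0 CPM with RANKL and at 94.2, 97.2 and 81.6 CPM with albiflorin. The groups did not overlap, albiflorin replicate 3 was nearest to the RANKL libraries, and the log2 fold change was 0.30 ± 0.0774 (adjusted p = 0.0103). After removal of the trend it was 0.31 ± 0.073 (adjusted p = 0.0125). Its mRNA of 3123 nt is long for a coding part of 315 nt, and with the trend on coding length removed the fold change was -0.02. The call as counted was lost without RANKL replicate 2 (0.24, adjusted p = 0.0583) and without albiflorin replicate 1 (0.27, adjusted p = 0.0607). The call with the trend removed was lost without albiflorin replicate 1 (0.29, adjusted p = 0.0567) and without albiflorin replicate 2 (0.26, adjusted p = 0.0598).

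Complex IV had 13 of 14 tested genes higher as counted, against 12.4% of all tested genes, with a median of 0.45. In all 14 the groups did not overlap and albiflorin was higher, against 20.8% of all tested genes. With the mRNA-length trend removed 1 of the 14 was called higher, against 4.83% of all tested genes, and the median was 0.04. All 10 common subunit genes were called as counted, with a median of 0.41. With the mRNA-length trend removed 1 of these 10 was called, with a median of 0.01. Cox7a2, a common subunit, was at 52.8, 53.0 and 49.9 CPM with RANKL and at 81.1, 96.1 and 79.0 CPM with albiflorin. Every albiflorin library was well above every RANKL library, and the log2 fold change of 0.72 ± 0.0780 had the smallest adjusted p of the 45 genes (0.00011). With the trend removed Cox7a2 was at 0.28 ± 0.065 (adjusted p = 0.0133), and it was also called with the trend on listed gene length, shortest mRNA or coding length removed. The call with the mRNA-length trend removed was lost without RANKL replicate 1 (0.26, adjusted p = 0.0525) and without RANKL replicate 3 (0.24, adjusted p = 0.0675). The most abundant common genes were called as counted and lay near 0 with the trend removed. Cox6b1, which faces the intermembrane space, stood at 99.0, 97.7 and 90.7 CPM against 125, 157 and 118 CPM (0.47 ± 0.0873, adjusted p = 0.00153; 0.01 with the trend removed). Cox4i1 stood at 314, 270 and 295 CPM against 376, 416 and 350.5 CPM (0.38 ± 0.0736, and -0.02). Cox6a1 stood at 139, 115.5 and 145 CPM against 178, 195 and 162.5 CPM (0.42 ± 0.0837, and -0.05). For each of these 3 genes the groups did not overlap and albiflorin replicate 2 was the highest library. The supercomplex factor gene Cox7a2l changed least among the 14, at 208, 194 and 200 CPM against 234, 248 and 229 CPM (0.24 ± 0.0602, adjusted p = 0.00933; -0.05 with the trend removed).

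Several complex IV subunits have a second gene whose protein replaces the common one in certain tissues. Of 6 such genes 3 were tested, and 2 were called as counted and 0 with the mRNA-length trend removed. Cox6a2, the heart and skeletal muscle form of subunit 6a, stood at 21.0, 20.5 and 22.1 CPM with RANKL and at 35.1, 36.9 and 29.2 CPM with albiflorin. The groups did not overlap and the log2 fold change was 0.67 ± 0.0988 (adjusted p = 0.000417), or 0.24 after the trend on mRNA length was taken out (adjusted p = 0.0747). It was called with the other length trends removed, at 0.28 on listed gene length (adjusted p = 0.0329), 0.29 on the shortest mRNA (0.0305) and 0.33 on coding length (0.0173). As a share of the FPKM of Cox6a1 and Cox6a2 it was 14.2% ± 1.10 (SD, n = 3) with RANKL and 16.3% ± 0.643 with albiflorin, without overlap (two-sided exact permutation test, p = 0.1, the smallest that 3 against 3 can give). Cox4i2, the lung form of subunit 4, stood at 1.40, 1.08 and 1.75 CPM against 2.04, 3.12 and 3.87 CPM. Its fold change of 1.09 ± 0.309 (adjusted p = 0.0180) rests on few reads. With the mRNA-length trend removed it was 0.70 and did not pass (adjusted p = 0.185). Nor did it pass with the trend on listed gene length (adjusted p = 0.125), shortest mRNA (0.145) or coding length (0.0685) removed. As counted it did not pass when RANKL replicate 2 was left out (0.92, adjusted p = 0.0850). The same held when the second (1.06, adjusted p = 0.0501) or the third albiflorin library was left out (0.86, adjusted p = 0.0811). Its share of the Cox4 FPKM was 0.902% ± 0.189 and 1.49% ± 0.521 (exact permutation p = 0.2). Cox7a1, the muscle form of subunit 7a, stood at 0.734, 0.765 and 0.742 CPM against 1.58, 1.86 and 1.06 CPM and did not pass (0.99 ± 0.359, adjusted p = 0.0555). Cox8b and Cox6b2 had at most a few reads in any library, and Cox8c had 0 reads in all 6, where 3 reads correspond to 0.194 to 0.219 CPM. The common form Cox8a stood at 98.7, 90.4 and 90.1 CPM against 118, 137 and 115 CPM (0.40 ± 0.0730, and -0.08 with the trend removed).

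Complex V had 12 of 17 genes higher as counted, against 12.4% of all tested genes, with a median of 0.36. All 12 are among its 15 true subunits. With the mRNA-length trend removed 2 of the 17 were called higher, against 4.83% of all tested genes, and the median was 0.02. The genes of the alpha and beta subunits, which form the catalytic F1 sites, did not pass. Atp5a1 (alpha) stood at 1037, 942 and 990 CPM with RANKL and at 1006, 987 and 975 CPM with albiflorin, adjusted p = 0.997. Atp5b (beta) stood at 1072, 956 and 1008 CPM against 1067, 1059 and 1051 CPM, with a log2 fold change of 0.07 ± 0.0630 (adjusted p = 0.492). In both genes the groups overlapped, and their mRNAs, at 2471 and 1916 nt, are among the longer ones of complex V. The other F1 genes, Atp5c1 (0.36), Atp5d (0.29) and Atp5e (0.51), were called as counted, and none of the 5 F1 genes was called with the mRNA-length trend removed. Atp5e was called with the trend on listed gene length removed (0.32, adjusted p = 0.00382) and Atp5c1 with that on coding length removed (0.26, adjusted p = 0.0162). Of the 10 genes of the stalk and Fo 9 were called as counted, with a median of 0.41. With the mRNA-length trend removed 2 of them were called, with a median of 0.04. Atp5l stood at 133, 115 and 124 CPM against 167, 193 and 148 CPM, without overlap (0.45 ± 0.0840, adjusted p = 0.0016; -0.04 with the trend removed). Atp5j2, subunit f of Fo, stood at 74.2, 62.2 and 73.2 CPM against 99.5, 117.5 and 93.5 CPM. Its groups were well apart (0.57 ± 0.0869, adjusted p = 0.000535), and it was called with each of the 4 length trends removed, at 0.24 ± 0.059 with that of mRNA length (adjusted p = 0.0183). The latter call was lost without RANKL replicate 2 (0.20, adjusted p = 0.0635) and without albiflorin replicate 2 (0.19, adjusted p = 0.0852). Atp5h, subunit d of the stalk, had the largest fold change of complex V, 0.72 ± 0.198 (adjusted p = 0.0155), at 65.8, 54.4 and 57.9 CPM against 78.3, 148.5 and 66.6 CPM. Albiflorin replicate 2 was far above the others, and without it the fold change was 0.28 (adjusted p = 0.0346). Without RANKL replicate 2 it did not pass (adjusted p = 0.0856), nor with DESeq2 (adjusted p = 0.140). With the mRNA-length trend removed Atp5h was at 0.27 (adjusted p = 0.307). Nor did it pass with the trend on listed gene length (adjusted p = 0.0575), shortest mRNA (0.330) or coding length (0.0717) removed.

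The c subunit, which forms the rotor ring of Fo, comes from 3 genes with the same mature protein. Atp5g1 stood at 76.6, 71.6 and 75.7 CPM with RANKL and at 90.3, 116 and 89.8 CPM with albiflorin, without overlap (0.40 ± 0.0866, adjusted p = 0.00383). Its call with the trend removed (0.52 ± 0.091, adjusted p = 0.00286) rests on a principal mRNA of 4715 nt; with the shortest, 596 nt, the fold change was -0.0070 (adjusted p = 0.961). Atp5g2 stood at 185, 137 and 156 CPM against 169, 190 and 178 CPM, with overlapping groups (0.17, adjusted p = 0.171). With the trend removed it was at -0.23 (adjusted p = 0.0520), and with the shortest mRNA at -0.29, where it was the 1 member called lower (adjusted p = 0.0176). Atp5g3 stood at 177, 172 and 180 CPM against 216, 256 and 219 CPM, without overlap (0.39 ± 0.0692, adjusted p = 0.00131; -0.03 with the trend removed). As shares of their joint FPKM, Atp5g1 was 9.07% and 9.78%, Atp5g2 49.0% and 45.5%, and Atp5g3 42.0% and 44.8%, in RANKL and albiflorin libraries. None of these 3 differences passed (exact permutation p = 0.2 each). The FPKM shares depend on listed gene length. As shares of joint counts over the 6 libraries, Atp5g1 was 17.5% to 20.6%, Atp5g2 33.8% to 42.2% and Atp5g3 40.3% to 45.5%.

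Libraries of a group differed in a common direction over the members. RANKL replicate 2 was the lowest of its group for 29 of the 45 genes, albiflorin replicate 2 the highest of its group for 35, and albiflorin replicate 3 the lowest for 35. Replicate 2 has the steepest length slope of either group, and albiflorin replicate 3 the flattest of its own. Among the RANKL libraries replicate 3 has the flattest slope (0.0622, against 0.0712 in replicate 1). It was the highest of its group for 9 genes, against 31 for replicate 1. The part of the slope in these orders was not tested. The median log2 deviation of the 45 genes from their own mean was -0.14, -0.25 and -0.17 in RANKL replicates 1 to 3 and 0.16, 0.34 and 0.07 in albiflorin replicates 1 to 3. After removal of the trend these medians lay between -0.026 and 0.026. The members' coefficient of variation within a group was 5.24% in the median with RANKL and 9.68% with albiflorin, and the largest was that of Atp5h with albiflorin, 45.3%.

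**Figure D4:**
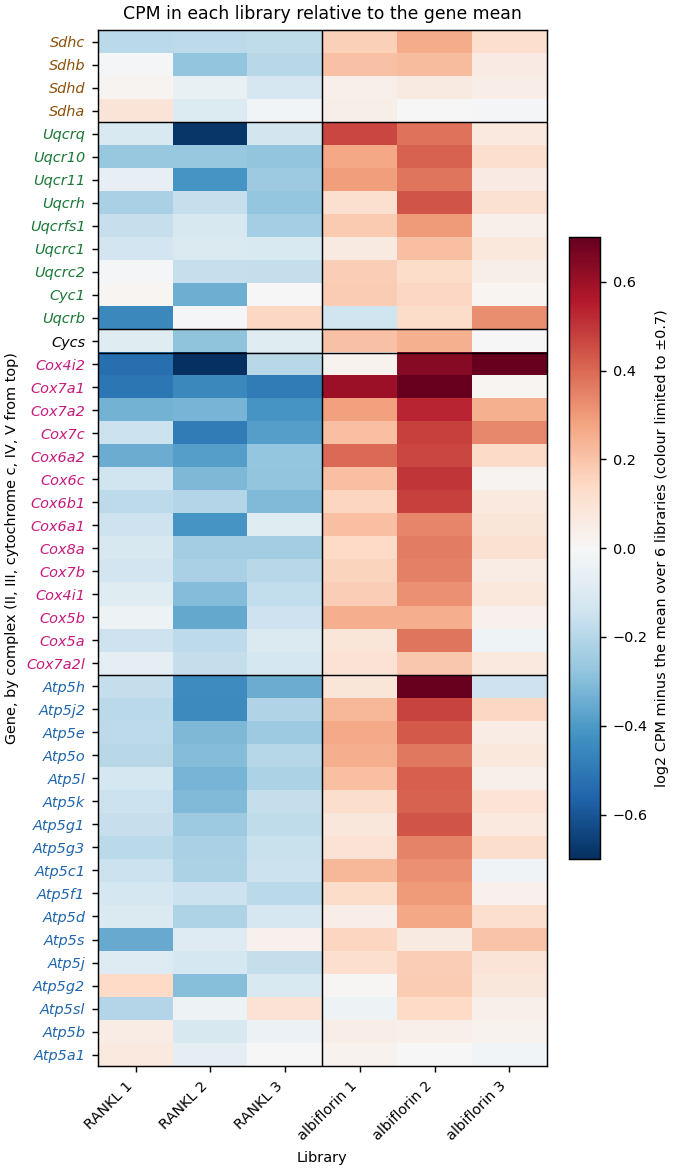
Log2 CPM of each tested gene in each library relative to its mean over 6 libraries, by complex; red is above and blue below the mean, with colours limited to ±0.7. Albiflorin replicate 2 is the reddest column and RANKL replicate 2 the bluest, and Atp5a1, Atp5b and Sdha are near white throughout.

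**Figure D5:**
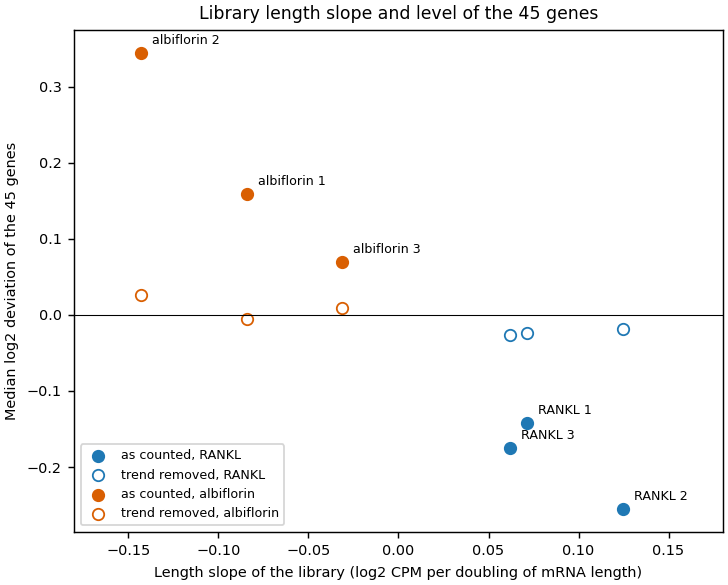
Median log2 deviation of the 45 genes in each library against that library's length slope; filled points are as counted, open points have the mRNA-length trend removed, blue is RANKL and orange albiflorin. The filled points run from 0.34 in albiflorin replicate 2 to -0.25 in RANKL replicate 2, and the open points lie near 0.

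Summed over all members the level was 7144, 6503 and 6832 CPM with RANKL (6827 ± 320, SD, n = 3) and 8061, 8681 and 7653 CPM with albiflorin (8132 ± 518), a ratio of 1.19. By complex the ratio was 1.32 for IV, 1.27 for III, 1.23 for cytochrome c, 1.14 for V and 1.10 for II. Abundant genes weigh most in such sums: within complex V the ratio was 1.07 for the F1 head, which holds Atp5a1 and Atp5b, and 1.30 for the stalk and Fo. With the mRNA-length trend removed the median log2 fold change was 0.02, 0.03, 0.04 and 0.02 in complexes II, III, IV and V. The members took 0.659% to 0.712% of the counted reads with RANKL and 0.761% to 0.852% with albiflorin. In bulk RNA more expressing cells and more RNA per cell cannot be told apart.

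Assembly factors, the proteins that help build these complexes, were read as a separate list. Of 37 assembly factors 34 were tested. As counted 12 were higher and 0 lower, against 12.4% and 11.4% of all tested genes, with a median of 0.23. The smallest p-values were those of Uqcc2 (0.67 ± 0.0843), which helps make cytochrome b of complex III, Pet100 (0.88 ± 0.134) and Cmc1 (0.56 ± 0.1), which act in complex IV assembly, and Tmem70 (0.35 ± 0.0852), of ATP synthase assembly. With the trend removed 2 were higher (Pet100, 0.62, adjusted p = 0.0059, and Sdhaf1, 0.66, adjusted p = 0.0464) and 1 lower, the complex IV translational activator gene Taco1 (-0.49, adjusted p = 0.00568). These counts are about those of the background, 4.83% higher and 5.57% lower over all tested genes. Of the 14 genes for cytochrome c and coenzyme Q synthesis 1 was higher as counted (Coq2, 0.28, adjusted p = 0.0246), beside 12.4% of all tested genes. Fold changes as counted were above 0 for 12 of the 14, with a median of 0.12. With the trend removed 6 were above and 8 below 0, with a median of -0.01. After removal of the trend Coq2 was at 0.12 (adjusted p = 0.324) and Coq8a was the 1 gene called (0.29, adjusted p = 0.0253). Complex I subunits, the first complex of the chain, ran alongside: 30 of 37 were higher and 0 lower as counted (median 0.43), and 5 were higher and 2 lower with the trend removed (median 0.06). The 3 ATP synthase proteins named outside the Atp5 rule, chosen after their values were seen, were all higher as counted: Atpif1, the inhibitor of its ATPase activity (0.59), Usmg5 (0.52) and 2010107E04Rik (0.40). Usmg5 was still called with the trend removed (0.50).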

How the data were processed

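The members and gene lists were chosen with earlier results of these data known. Titles gave the groups, and a column belongs to the sample with its group letter and number. The deposited raw counts are whole reads per gene, and the authors' deposited FPKM values divide those counts by listed gene length and library total. Tools named in the submitters' processing notes, whose roles are not stated there, include HISAT2 2.2.1 and featureCounts 2.0.6-p3. Genome build and strand setting: not given in the sources used here. Reads of overlapping genes could be shared (8 members overlap a tested row).

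The 13158 genes that passed filterByExpr entered one edgeR 4.0.16 quasi-likelihood fit (R 4.3.3) on the deposited counts, by group, with TMM-scaled library sizes, also used for CPM. Genes with a Benjamini-Hochberg adjusted p under 0.05 over all of them were called. SE belongs to the log2 fold change. Alternatives were RLE, DESeq2 1.42.0, limma-voom (limma 3.58.1), other filters, a replicate block, each library left out, limma on log FPKM with a pseudocount of 1 or 0.1, a test against 1.2-fold, and removal from each library of a lowess trend (span 0.3, genes over a mean log2 CPM of 3) on listed gene length or on mRNA length (GENCODE M21 principal transcripts, longest form, matched by symbol). An mRNA length was found for 87.6% of tested genes; the others took the trend on listed gene length. Trends on the shortest principal mRNA and on coding length, and leave-one-out runs with the trend removed, were added after seeing the data. The fits were tested on simulated data. Values in every library are given for the 3 highest genes in FPKM per complex, the highest and lowest fold change, genes called with the trend removed, and isoform sets; each other list adds its called genes of lowest p, at most 4.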

Additional observations from a re-analysis of the deposited data

How the results depend on the processing

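Of the members, 35 were higher as counted, and counts of 33 to 36 came from RLE, DESeq2, limma-voom, both other filters and limma on FPKM. Leaving out 1 library gave 30 to 37 higher and 0 lower; 29 of the 35 calls held in every such run, and Atp5h, Cox4i2, Cox5a, Cycs, Uqcrc1 and Uqcrc2 did not. With the length trend removed, members called higher were 15 on listed gene length, 6 on mRNA length, 6 with the trend fitted without the respiratory and ribosomal genes, 5 on the shortest mRNA and 10 on coding length; the test against 1.2-fold called 6. Atp5j2 and Cox7a2 were called with all 4 lengths. With the mRNA trend removed and 1 library left out, 4 to 6 were higher and 0 to 2 lower, and Sdhc and Atp5g1 stayed called in every such run. Members lower were 1 on the shortest mRNA, Atp5g2 at -0.29. With the mRNA trend removed, Atp5g2 was called lower without RANKL replicate 2 (-0.29) and without albiflorin replicate 3 (-0.29), and Uqcrb without RANKL replicate 1 (-0.47) and without albiflorin replicate 3 (-0.50). The cause of these changes was not tested. Over all tested genes 1631 were higher and 1496 lower; leaving out 1 library gave 984 to 1753 and 914 to 1644, where leaving out RANKL replicate 2 (1010 and 914), albiflorin replicate 1 (984 and 977) or albiflorin replicate 2 (1025 and 999) moved them most. With the mRNA trend removed as well, counts without RANKL replicates 1 to 3 and then albiflorin replicates 1 to 3 were 409, 487, 373, 377, 288 and 642 higher and 455, 531, 414, 409, 307 and 730 lower. Counts higher were 945 (listed gene length), 635 (mRNA length), 645 (families left out of the trend), 650 (shortest mRNA), 771 (coding length) and 193 (1.2-fold). Counts lower were 733, 714, 848 and 105 for mRNA length, families left out, shortest mRNA and 1.2-fold, and 901 and 909 for limma on log2(FPKM + 1) and log2(FPKM + 0.1). Same-numbered libraries had correlations of 0.022, -0.043 and -0.066, and differently numbered ones -0.024 to 0.072. No effect shared by number was seen, which does not show that the numbers mark no shared culture. With the replicate block 35 members were higher and 0 lower, among 1358 and 1214 genes; with the block and the mRNA trend removed 6 were higher, among 595 and 645. Depth limits Cox4i2 and Cox7a1, at a few CPM.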
